A study of Mus musculus with 12 samples.

Results

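The genes described here mark macrophages and monocytes, antigen presentation on class II of the major histocompatibility complex (MHC), lymphocytes and neutrophils, and they were followed in whole mouse kidney. They are 34 of the 46403 genes in the count table, matched by name. Of these, 18 are macrophage and monocyte genes, 5 belong to the class II pathway, 4 are T cell genes, 3 are B cell genes and 2 are neutrophil genes. The other two are the pan-leukocyte gene Ptprc and the cytotoxic lymphocyte gene Nkg7. Polyadenylated RNA of the entire right kidney was sequenced in 12 libraries of 3 genotypes. The wildtype group (n = 5) carried floxed Grhl2 (flox/flox) and the R26StopFLMYC transgene, and no Cre is named for it. The Myc group (n = 3) is labelled Myc overexpression, and its library identifiers hold the tag HET, where those of the other groups hold WT or KO. What HET refers to is not stated, and no cross or Grhl2 allele is named for this group in the sources used here. Its Grhl2 genotype is therefore not known to be intact. The Grhl2KO_Myc group (n = 4) is labelled Grhl2 knockout with Myc overexpression and came from crosses of HoxB7-Cre; Grhl2flox/+ mice with R26StopFLMYC; Grhl2flox/flox mice. The HoxB7 promoter drives Cre in the ureteric bud epithelium and the collecting ducts that grow from it, and Grhl2 is a transcription factor of epithelial cells. The labels name no treatment and no age. Whether each library is a mouse of its own is not stated, so p-values measure the spread between these samples, which may be technical.

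Resident macrophages are the most numerous leukocytes of the healthy mouse kidney, where they lie between the tubules, clear debris and carry the fractalkine receptor Cx3cr1 and the growth factor receptor Csf1r. Dendritic cells, macrophages and B cells load peptides on class II molecules, whose transcription is switched on by the coactivator Ciita, and the T cell receptor reads these peptides. CD4 is the co-receptor that binds class II, and CD8 the one that binds class I. In RNA of a whole organ, fewer cells of a type and less RNA per cell cannot be told apart.

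Total counts lay between 52973520 and 98713157 in wildtype, between 70608817 and 101043826 in Myc and between 75187006 and 108164810 in Grhl2KO_Myc libraries. Levels below are CPM, a gene's count over the library total after TMM scaling, and a level per kb is the CPM divided by the exon width that the table gives for the gene. Grhl2 lay at 23.9 to 29.2 CPM in wildtype, 28.2 to 33.0 CPM in Myc and 18.5 to 24.3 CPM in Grhl2KO_Myc. The kidney gene Lrp2, a receptor of the proximal tubule, was at 248 to 704 CPM. The mean log2 level of 30 proximal tubule genes, relative to the mean over libraries, was -1.17 in wildtype 4, -0.99 in Grhl2KO_Myc 3 and -0.90 in Grhl2KO_Myc 4. The other 9 libraries lay between -0.08 and 0.70. The Y-linked gene Ddx3y exceeded 10 CPM in 4 libraries (wildtype 5, Myc 3, Grhl2KO_Myc 1 and 4), so every group mixed libraries with and without it. Grhl2KO_Myc 2 stood apart in signalling genes, as given at the end.

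Promoter sequence in the RefSeq table of build GRCm38.p6 was matched for 23 of the 34 genes. Sequences are printed for Ptprc, the 1 gene of the set that was called between groups, and for the class II chain genes H2-Aa and H2-Eb1, which carry the Y box of class II promoters. Each is 120 bases, 5′ to 3′ on the strand of the gene, and capitals mark the PU.1 core (GAGGAA) in Ptprc and the Y box (GATTGG, or CCAATC where it lies on the other strand) in H2-Aa and H2-Eb1. The starts are those of RefSeq. The GENCODE M21 model of Ptprc begins at 138175708 on the minus strand, so the printed Ptprc stretch lies inside that gene model, after its start.
Ptprc, chr1:138175364-138175483, minus strand, from 178 to 59 bases before the start: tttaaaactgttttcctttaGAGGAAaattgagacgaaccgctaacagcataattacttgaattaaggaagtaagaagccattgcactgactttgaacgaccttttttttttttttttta
H2-Aa, chr17:34287824-34287943, minus strand, the last 120 bases before the start: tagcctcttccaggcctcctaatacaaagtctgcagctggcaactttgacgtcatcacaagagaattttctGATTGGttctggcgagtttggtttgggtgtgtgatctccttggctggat
H2-Eb1, chr17:34305747-34305866, plus strand, the last 120 bases before the start: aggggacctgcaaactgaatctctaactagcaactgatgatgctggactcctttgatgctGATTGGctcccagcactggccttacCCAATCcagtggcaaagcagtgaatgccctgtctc
PU.1 is a transcription factor of myeloid and B cells, and NF-Y binds the Y box. The 250 bases before the start were searched on both strands, and a gene counted if any of its promoters matched. GAGGAA was found at 13 of the 23 genes (56.5%), and at 23.3% of the 32851 promoters in the table. These shares are of genes and of promoters, so they are not in like units, and a gene with several starts has more chances to match. GATTGG was found at 5 of the 23 genes (21.7%, namely Cd68, Cd163, H2-Aa, H2-Eb1 and Nkg7) and at 14.6% of all promoters. The X box, the neighbouring element of class II promoters, was found in the form searched at 0 of the 23 genes and at 0.231% of all promoters. These are letter matches and show no binding.

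The levels per kb spanned more than 3 orders of magnitude, and each of the larger classes held both high and low genes. S100a9, a calcium-binding protein abundant in neutrophils, had the highest wildtype mean at 19.8 CPM per kb. Lysozyme (Lyz2) was at 16.0, the complement chain C1qb at 13.1, S100a8 at 13.02, Csf1r at 10.97 and C1qa at 10.8 CPM per kb. The class II chain H2-Ab1 (8.90), the signalling adaptor Tyrobp (7.73), the lysosomal protease Ctss (7.11) and C1qc (6.64) came next. The libraries of neighbours in this order overlapped. The macrophage and monocyte genes ran from Lyz2 down to Itgax (0.0855 CPM per kb). Of the B cell genes, Cd79b lay at 2.32, Cd79a at 0.614 and Ms4a1 at 0.0966 CPM per kb. The T cell gene Cd8a stood at 0.452 and Cd4 at 0.164 CPM per kb, and the T cell receptor chains Cd3e (0.0126) and Cd3g (0.0340) and Nkg7 (0.0348) were lowest. The most even genes over the 12 libraries were Csf1r, whose highest library was 1.38 times the lowest, Cd79a (1.40) and H2-Ab1 (1.43). The most uneven of the tested genes were Ciita (5.87) and Cd8a (4.87).

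**Figure D1:**
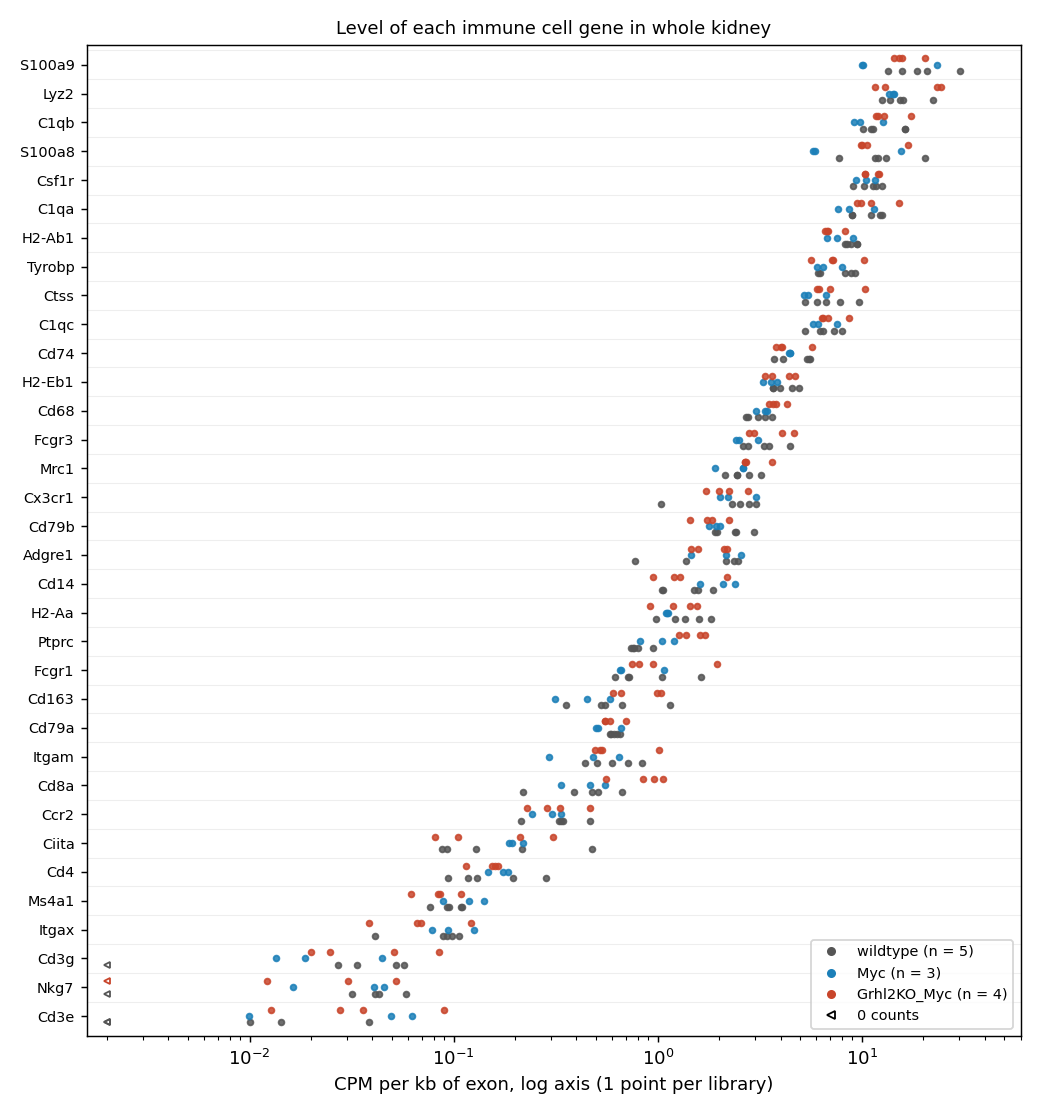
Level of each of the 34 genes in CPM per kb of exon (log axis), 1 point per library, coloured by group, with open triangles for 0 counts. Neutrophil, macrophage and class II genes fill the top, other macrophage genes reach down to Itgax, and Cd3e, Cd3g and Nkg7 lie at the bottom.

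Of the 34 genes, 31 passed the filter on low counts and were tested with edgeR's quasi-likelihood test among 23742 genes. Cd3e, Cd3g and Nkg7 were not tested. Between Grhl2KO_Myc and wildtype 1 of the 31 was called at an adjusted p under 0.05, and it rose (Ptprc). Over all genes 6.67% were called, 4.06% higher and 2.61% lower, so 1 of 31 is no larger a share than that of the transcriptome. Ptprc was also the only one of the 31 whose groups did not overlap, while 9.47% of all genes were free of overlap. Between Grhl2KO_Myc and Myc 0 of 31 were called by edgeR, 0 by limma-voom and 1 by DESeq2 (Ptprc), against 0.842% of all genes by edgeR, and 3 had an unadjusted p under 0.05. In that comparison 5 genes did not overlap (Cd68, Mrc1, Cd163, Ptprc and Cd8a, all higher in Grhl2KO_Myc), against 16.8% of all genes. Between Myc and wildtype 0 were called by edgeR, DESeq2 or limma-voom (0.00421% of all genes by edgeR), 1 had an unadjusted p under 0.05 (Ptprc) and 0 were free of overlap (3.57% of all).

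The direction of the set as a whole was small and changed with single libraries. In Grhl2KO_Myc against wildtype 15 of the 31 log2 fold changes lay above 0 and 16 below, with a median of -0.01 against -0.01 over all genes, and RLE scaling moved 1 gene near 0 (Adgre1) to the other side. Without Grhl2KO_Myc 2 the split was 5 above and 26 below with a median of -0.13. It was 20 above and 11 below without wildtype 5 (median 0.03), and also 20 above and 11 below without the 3 libraries low in proximal tubule genes (median 0.19). In Myc against wildtype 9 lay above and 22 below (median -0.18, against 0.00 over all genes), and the median was -0.09 without Myc 1 and -0.11 without wildtype 5. In Grhl2KO_Myc against Myc 21 lay above and 10 below (median 0.17, against 0.00). Each comparison shares a group with the others, so these splits do not stand as separate evidence. The last median was 0.09 without Grhl2KO_Myc 2 and 0.09 without Myc 1.

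**Figure D2:**
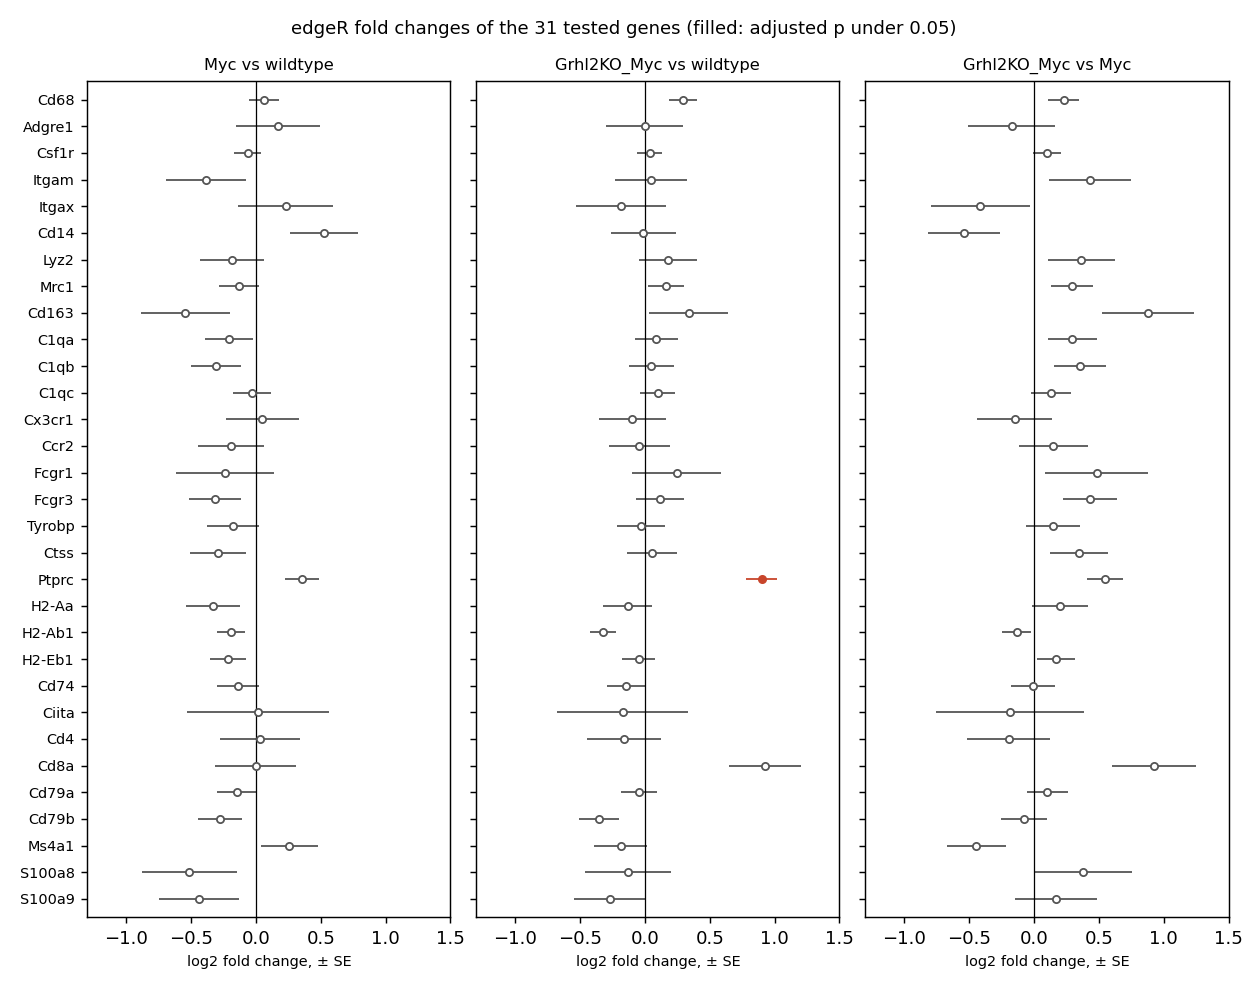
log2 fold change ± SE of the 31 tested genes in each comparison, from edgeR, with filled points for an adjusted p under 0.05. The only filled point is Ptprc in Grhl2KO_Myc against wildtype, at 0.90.

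Ptprc encodes CD45, the membrane tyrosine phosphatase that all nucleated blood cells carry. It was measured at 13.6, 14.1, 14.6, 13.9 and 17.3 CPM in wildtype 1 to 5, at 15.1, 19.2 and 22.0 CPM in Myc 1 to 3 and at 23.4, 25.1, 31.4 and 29.6 CPM in Grhl2KO_Myc 1 to 4. All 4 Grhl2KO_Myc libraries lay above all others, while Myc 1 fell within the wildtype range and Myc 2 and 3 above it. Ptprc rose 1.87-fold in Grhl2KO_Myc (27.4 ± 3.75 CPM, SD, n = 4) over wildtype (14.7 ± 1.51 CPM, n = 5), which is 0.90 on the log2 scale (SE 0.12, edgeR adjusted p = 0.00118). The Myc mean was 18.8 ± 3.50 CPM (n = 3), with a log2 fold change of 0.35 over wildtype (SE 0.13, edgeR adjusted p = 0.999). Between Grhl2KO_Myc and Myc it was 0.55 (SE 0.14, edgeR adjusted p = 0.105, DESeq2 adjusted p = 0.00869). The call against wildtype held under all 20 alternatives, with log2 fold changes from 0.70 to 0.96 and adjusted p from 3.36e-10 to 0.0152. The lowest value, 0.70, came without the 3 libraries low in proximal tubule genes.

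Other genes that many leukocytes share, chosen after their values were seen, were not called. Laptm5, a lysosomal membrane protein of haematopoietic cells, was at 16.5 ± 2.37 CPM in wildtype (n = 5) and 16.0 ± 0.842 CPM in Grhl2KO_Myc (n = 4), or -0.04 on the log2 scale (SE 0.10, edgeR adjusted p = 0.85). The tetraspanin Cd53 had a log2 fold change of 0.03 (edgeR adjusted p = 0.95) and the integrin chain Itgb2 one of -0.02 (0.96). The count of Ptprc divided by that of Laptm5 was 0.734 to 1.03 in wildtype, 1.02 to 1.29 in Myc and 1.44 to 2.06 in Grhl2KO_Myc. Against Itgb2 the ratio was 5.37 to 6.55, 7.70 to 10 and 7.42 to 14.2. Against Cd53 it was 3.97 to 7.33, 7.24 to 8.47 and 6.66 to 12.5, where Grhl2KO_Myc overlapped wildtype. These ratios describe the libraries and were not tested.

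The annotation of Ptprc bears on what was counted. The gene (ENSMUSG00000026395.16, chromosome 1, 138062861 to 138175708, minus strand, mm10) has an exon width of 18313 bases in the table, which equals the width over all its transcripts in GENCODE M21. Its coding transcripts cover 5119 bases, and the other 13194 bases (72%) are exon only in transcripts not typed as protein coding. The table does not say which exons the counts came from, so the part of this stretch in the rise was not tested. A130071D04Rik, an unspliced model inside a Ptprc intron on the same strand, had 0 to 7 counts per library, against 755 to 3246 for Ptprc.

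**Figure D3:**
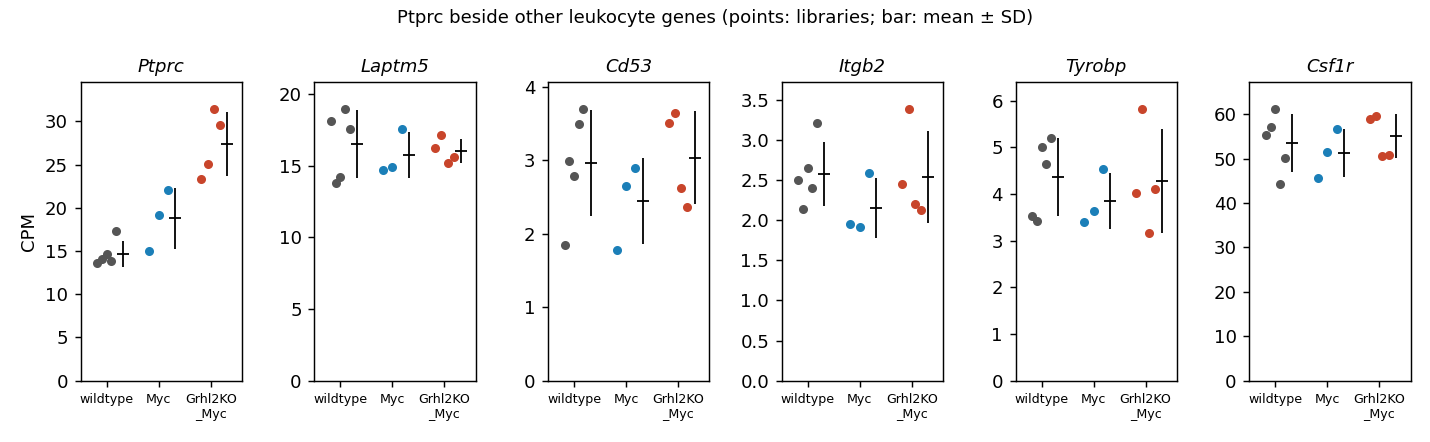
CPM of Ptprc and of 5 other leukocyte or myeloid genes, 1 point per library, with the mean ± SD of each group as a bar. The Grhl2KO_Myc points of Ptprc (23.4 to 31.4 CPM) lie above all wildtype points, while the groups overlap in the other panels.

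Among the 18 macrophage and monocyte genes 0 were called by edgeR in any comparison. At an unadjusted p under 0.05 there were 0 in Myc against wildtype, 1 in Grhl2KO_Myc against wildtype (Cd68) and 1 in Grhl2KO_Myc against Myc (Cd163), where the shares of all genes were 4.62%, 22% and 13.3%. DESeq2 and limma-voom also called 0 of them. Their summed level was 172 to 196 CPM in wildtype, 148 to 190 CPM in Myc and 164 to 237 CPM in Grhl2KO_Myc. In Grhl2KO_Myc against wildtype 13 lay above 0 and 5 below, and without Grhl2KO_Myc 2 this turned to 3 above and 15 below. Without wildtype 5, and also without the 3 libraries low in proximal tubule genes, it was 16 above and 2 below.

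Csf1r, the receptor that keeps macrophages alive, was at 53.6 ± 6.55 CPM in wildtype (n = 5), 51.3 ± 5.45 CPM in Myc (n = 3) and 55.0 ± 4.94 CPM in Grhl2KO_Myc (n = 4). Its log2 fold change in Grhl2KO_Myc over wildtype was 0.04 (SE 0.096, edgeR adjusted p = 0.86). Of its exon bases in GENCODE M21, 873 are shared with Hmgxb3 on the other strand, which the kit does not separate. The width given with the counts is 4885 bases, against 5774 in M21, so whether this stretch was counted is not known. Adgre1 (F4/80, the classical mouse macrophage marker) had a log2 fold change of 0.00 (SE 0.30), and its libraries ranged from 2.51 CPM in wildtype 4 to 8.31 CPM in Myc 3. Cx3cr1 lay at -0.10 (SE 0.26) and was also lowest in wildtype 4 (3.89 CPM), against 6.49 to 11.4 CPM in the other 11 libraries.

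Cd68, a lysosomal glycoprotein of macrophages, was at 3.42, 4.21, 3.49, 3.89 and 4.58 CPM in wildtype, 3.79, 4.20 and 4.30 CPM in Myc and 4.78, 5.397, 4.40 and 4.64 CPM in Grhl2KO_Myc. The Grhl2KO_Myc libraries lay above all Myc libraries, and Grhl2KO_Myc 3 lay below wildtype 5. The log2 fold change over wildtype was 0.29 (SE 0.11, edgeR adjusted p = 0.12) and passed under 0 of 20 alternatives. The haemoglobin scavenger receptor Cd163 was at 3.02, 2.88, 3.66, 6.26 and 1.95 CPM in wildtype, 2.45, 3.18 and 1.72 CPM in Myc and 5.69, 5.44, 3.30 and 3.61 CPM in Grhl2KO_Myc. Its highest library was wildtype 4, and Grhl2KO_Myc exceeded Myc without overlap (log2 fold change 0.88, SE 0.35, edgeR adjusted p = 0.30). Over wildtype the log2 fold change was 0.34 (edgeR adjusted p = 0.56), and it was 0.94 (adjusted p = 0.046) without the 3 libraries low in proximal tubule genes. The mannose receptor Mrc1 had log2 fold changes of 0.16 over wildtype and 0.29 over Myc (edgeR adjusted p = 0.53 and 0.46).

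The complement chains C1qa, C1qb and C1qc, which assemble into 1 secreted molecule made by tissue macrophages, had log2 fold changes of 0.09, 0.05 and 0.10 in Grhl2KO_Myc over wildtype (edgeR adjusted p = 0.80, 0.90 and 0.72). Fcgr1 and Fcgr3, activating receptors for antibody, lay at 0.24 and 0.12 (adjusted p = 0.73 and 0.76). Fcgr genes resemble each other in sequence, as do Lyz2 and Lyz1, so the split of reads among them is uncertain. Lyz2 lay at 0.18 (edgeR adjusted p = 0.69), Ctss at 0.06 (0.90) and Tyrobp at -0.03 (0.95).

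The adhesion integrins and the monocyte receptors were low and uneven. Itgam (CD11b) was at 3.95 ± 1.02 CPM in wildtype (n = 5) and 4.08 ± 1.58 CPM in Grhl2KO_Myc (n = 4). In GENCODE M21, 3450 of its exon bases are shared with Gm49368 on the same strand, so its counts are uncertain. The width given with the counts is 6377 bases, against 5024 in M21, so the model counted was a different one. Itgax (CD11c, carried by dendritic cells) was at 0.346 ± 0.104 CPM in wildtype and 0.299 ± 0.141 CPM in Grhl2KO_Myc. The inflammatory monocyte receptor Ccr2 stood at 2.16 ± 0.569 and 2.10 ± 0.646 CPM in these groups. Cd14, the co-receptor for bacterial lipopolysaccharide, was highest in Myc at 3.19 ± 0.616 CPM (n = 3), against 2.22 ± 0.551 CPM in wildtype and 2.21 ± 0.842 CPM in Grhl2KO_Myc, with an edgeR adjusted p of 0.999 for Myc against wildtype and 0.44 for Grhl2KO_Myc against Myc.

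All 5 class II genes had a log2 fold change below 0 in Grhl2KO_Myc against wildtype, and 0 were called by edgeR (1 at an unadjusted p under 0.05, and 1 called by DESeq2). Over all genes 48.5% lay above 0. Only H2-Ab1 stayed below 0 under every alternative, while H2-Aa, H2-Eb1, Cd74 and Ciita reached 0.04, 0.02, 0.02 and 0.40. H2-Ab1, the beta chain of the I-A molecule, was at 13.8, 15.5, 14.5, 13.5 and 15.5 CPM in wildtype, 14.9, 11.1 and 12.3 CPM in Myc and 11.2, 13.6, 11.01 and 10.8 CPM in Grhl2KO_Myc. Of the Grhl2KO_Myc libraries, 3 lay below every wildtype library and Grhl2KO_Myc 2 just above wildtype 4. The log2 fold change was -0.32 (SE 0.098, edgeR adjusted p = 0.071). It passed without Grhl2KO_Myc 2 (-0.40, adjusted p = 0.034), without wildtype 4 (-0.35, adjusted p = 0.038) and with DESeq2 (-0.33, adjusted p = 0.018).

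The partner alpha chain H2-Aa was at 2.62 ± 0.617 CPM in wildtype (n = 5), 2.08 ± 0.0236 CPM in Myc (n = 3) and 2.39 ± 0.535 CPM in Grhl2KO_Myc (n = 4), and the log2 fold change of Grhl2KO_Myc over wildtype was -0.13 (edgeR adjusted p = 0.73). The I-E beta chain H2-Eb1 lay at -0.05 (0.87) and the invariant chain Cd74, which guards the peptide groove, at -0.15 (0.61). Ciita was uneven, from 0.426 CPM in Grhl2KO_Myc 1 to 2.50 CPM in wildtype 5, with a log2 fold change of -0.17 (SE 0.51). The chains of class II are similar in sequence to their relatives, so reads may be shared among H2 genes. H2-Ea-ps, the model of the I-E alpha chain in the table, had 0 counts in every library, which allows up to 3 counts or 0.0274 to 0.0568 CPM.

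Cd8a, the co-receptor of cytotoxic T cells that some dendritic cells also carry, was at 1.42, 1.86, 1.73, 0.791 and 2.42 CPM in wildtype and 1.22, 1.69 and 2.00 CPM in Myc. It was at 2.04, 3.85, 3.08 and 3.50 CPM in Grhl2KO_Myc, above all Myc libraries, and Grhl2KO_Myc 1 lay below wildtype 5. The log2 fold change was 0.93 over wildtype (SE 0.28, edgeR adjusted p = 0.070) and 0.93 over Myc (SE 0.32, edgeR adjusted p = 0.23). It missed the threshold over wildtype in the main test and passed under 5 of 20 alternatives, among them leaving out wildtype 4 (0.75, adjusted p = 0.044) or wildtype 5 (1.09, adjusted p = 0.045) and DESeq2 (0.92, adjusted p = 0.013). Its partner chain Cd8b1, on the list of other T cell genes, was at 0.355 ± 0.126 CPM in wildtype (n = 5) and 0.559 ± 0.143 CPM in Grhl2KO_Myc (n = 4), or 0.67 on the log2 scale (SE 0.29, edgeR adjusted p = 0.19). No gene on that list rose by more than 0.67 over wildtype. Of its 23 tested genes, 12 lay above 0 and 11 below (median 0.07), and 1 was called, lower in Grhl2KO_Myc.

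The defining genes of T cells were near the floor of detection. Cd3e had 0 to 12 counts per library and 44 over all 12, Cd3g 0 to 7 and 38, and Nkg7, a granule protein of cytotoxic cells, 0 to 5 and 27. Per library a count of 0 allows 3 counts, or 0.0274 to 0.0568 CPM, and such limits cover counting error only. In a fit without the filter on low counts, edgeR called 0 of these 3 genes in any comparison. Cd4 was at 0.661 ± 0.307 CPM in wildtype (n = 5), 0.682 ± 0.0770 CPM in Myc (n = 3) and 0.597 ± 0.0891 CPM in Grhl2KO_Myc (n = 4), with an edgeR adjusted p of 0.78 for the last against the first.

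The B cell genes encode the signalling chains of the B cell receptor (Cd79a and Cd79b) and the surface protein CD20 (Ms4a1). Cd79a was even at 0.895 ± 0.0421 CPM in wildtype (n = 5) and 0.867 ± 0.101 CPM in Grhl2KO_Myc (n = 4). Cd79b was at 3.32 ± 0.614 and 2.601 ± 0.469 CPM in these groups, or -0.35 on the log2 scale (SE 0.15, edgeR adjusted p = 0.21). Per kb, Cd79b exceeded Cd79a in wildtype means (2.32 against 0.614), although their products pair 1 to 1. Ms4a1 lay at -0.19 over wildtype and -0.44 over Myc (edgeR adjusted p = 0.65 and 0.44).

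S100a8 and S100a9 form the calprotectin dimer of neutrophils and monocytes. S100a8 was at 8.36, 5.38, 8.03, 14.2 and 9.17 CPM in wildtype, 4.08, 4.01 and 10.8 CPM in Myc and 7.34, 11.8, 6.89 and 6.97 CPM in Grhl2KO_Myc. S100a9 had its highest level in the same wildtype library (15.8 CPM in wildtype 4) and its lowest in Myc 1 and 2 (5.30 and 5.26 CPM). The spread within groups exceeded the differences between them, with log2 fold changes over wildtype of -0.51 and -0.44 in Myc and -0.13 and -0.27 in Grhl2KO_Myc (edgeR adjusted p from 0.621 to 0.999). Other neutrophil genes were low, with Ly6g at 0.0948 to 0.278 CPM and the granule protease Elane at 0 to 0.129 CPM.

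The other lists of the same cell types and pathways held 172 genes, of which 154 were tested. In Grhl2KO_Myc against wildtype 3 rose and 3 fell, no larger a share than the 6.67% of all genes. In the other comparisons 0 were called by edgeR, and at an unadjusted p under 0.05 there were 11 in Myc against wildtype and 20 in Grhl2KO_Myc against Myc, against 4.62% and 13.3% of all genes. The complement receptor Cr2, known from B cells and follicular dendritic cells, was at 2.57 ± 0.442 CPM in wildtype (n = 5) and rose by 1.17 on the log2 scale to 5.77 ± 1.04 CPM in Grhl2KO_Myc (n = 4, SE 0.16, edgeR adjusted p = 0.00156). Its level in Myc was 4.51 ± 0.891 CPM (n = 3), and it was called without each library in turn. Gata2, a factor of mast cells that kidney epithelium and endothelium also express, rose from 46.9 ± 3.66 to 73.5 ± 10.2 CPM (log2 fold change 0.65, SE 0.10, edgeR adjusted p = 0.00279) and was called without each library in turn.

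The other 4 calls were at low level or close to the threshold. Cd3d, a chain of the T cell receptor complex, stood at 0.155 ± 0.0453 CPM in wildtype (n = 5) and fell to 0.0376 ± 0.0204 CPM in Grhl2KO_Myc (n = 4), on 2 to 12 counts per library (log2 fold change -1.999, SE 0.41, edgeR adjusted p = 0.013). Without the 3 libraries low in proximal tubule genes its adjusted p was 0.12. The chemokine Ccl20 rose (log2 fold change 2.74, SE 0.65, edgeR adjusted p = 0.028) from 0.0451 ± 0.0334 to 0.320 ± 0.296 CPM, with 0.760 CPM in Grhl2KO_Myc 2, and was lost without that library (adjusted p = 0.062), without wildtype 2 (0.066) or without wildtype 3 (0.073). Cd83, which stabilises class II on dendritic cells, fell by 0.31 on the log2 scale (edgeR adjusted p = 0.024), and its adjusted p reached 0.075 with 1 library left out (wildtype 1, 2 or 3 or Grhl2KO_Myc 2, 3 or 4 each lost it). The B cell factor Ebf1, also found in stromal cells, fell by 0.32 (edgeR adjusted p = 0.042) and was lost in 8 of 12 fits with 1 library left out, up to 0.12 without Grhl2KO_Myc 4. Of the class II loading genes, H2-DMa, H2-DMb1 and H2-DMb2 had log2 fold changes of -0.30, -0.58 and -0.39 (edgeR adjusted p = 0.074, 0.069 and 0.10). On their list of other class II pathway genes, 6 of the 14 tested genes lay above 0 and 8 below (median -0.07), and 0 were called.

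Lists of other kidney cells were counted in the same comparison, in which 2.61% of all genes fell. Of 12 endothelial genes, 3 fell (Kdr, Flt1 and Tek, by 0.27, 0.27 and 0.30 on the log2 scale, edgeR adjusted p = 0.018, 0.025 and 0.0081), and of 30 proximal tubule genes 2 fell (Hnf4a and Cyp2e1, by 0.65 and 0.97, adjusted p = 0.012 and 0.037). All 30 proximal tubule genes (median log2 fold change -0.51) and all 12 endothelial genes (median -0.15) lay below 0. Over all genes 48.5% lay above 0. Of the tested genes, 12 of fibroblasts, 7 of red blood cells, 8 of urothelium and 7 of adipocytes, 0 were called. The adipocyte genes had a median log2 fold change of -1.41, with 6 of 7 below 0, and the 9 on the list summed to 1.94 to 25.5 CPM in wildtype, 4.42 to 31.1 CPM in Myc and 1.63 to 13.5 CPM in Grhl2KO_Myc. The 7 red blood cell genes summed to 916 to 1793 CPM in wildtype, 904 to 1144 CPM in Myc and 642 to 1123 CPM in Grhl2KO_Myc, and the 12 endothelial genes to 1149 to 1290, 1071 to 1145 and 1045 to 1120 CPM. The part of these cells in the values of immune genes was not tested. In the 3 libraries with the low proximal tubule score, Cx3cr1 (3.89 to 7.502 CPM), Cd74 (5.26 to 5.69 CPM) and Ms4a1 (0.384 to 0.520 CPM) lay below the other 9 libraries. The rest of the 31 tested genes overlapped in this split, and the share over all genes was not counted. With that score added to the model, Adgre1, Cd8a and Cd79b were called beside Ptprc in Grhl2KO_Myc against wildtype (log2 fold changes 0.52, 1.25 and -0.50, edgeR adjusted p = 0.038, 0.018 and 0.023). That is 4 of the 31 tested genes, and over all genes the same model called 2332 of 23742, against 1584 in the main test.

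The clearest pattern within a group was that of Grhl2KO_Myc 2. It was the highest of the 12 libraries at 13 of the 31 tested genes, 11 of them macrophage genes, whereas it was highest at 7.45% of all genes. Among the 4 Grhl2KO_Myc libraries it was highest at 22 of the 31 (23.5% of all genes). In Myc, library 3 was the highest of its group at 25 of the 31 genes (36.7% of all genes), 17 of them among the 18 macrophage genes. Wildtype 4 was the highest of the 12 libraries at 4 of the 31 genes, against 18% of all genes, and the lowest at 6. Among these, it combined the highest S100a8, S100a9 and Cd163 with the lowest Adgre1, Cx3cr1, Ccr2 and Cd8a.

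**Figure D4:**
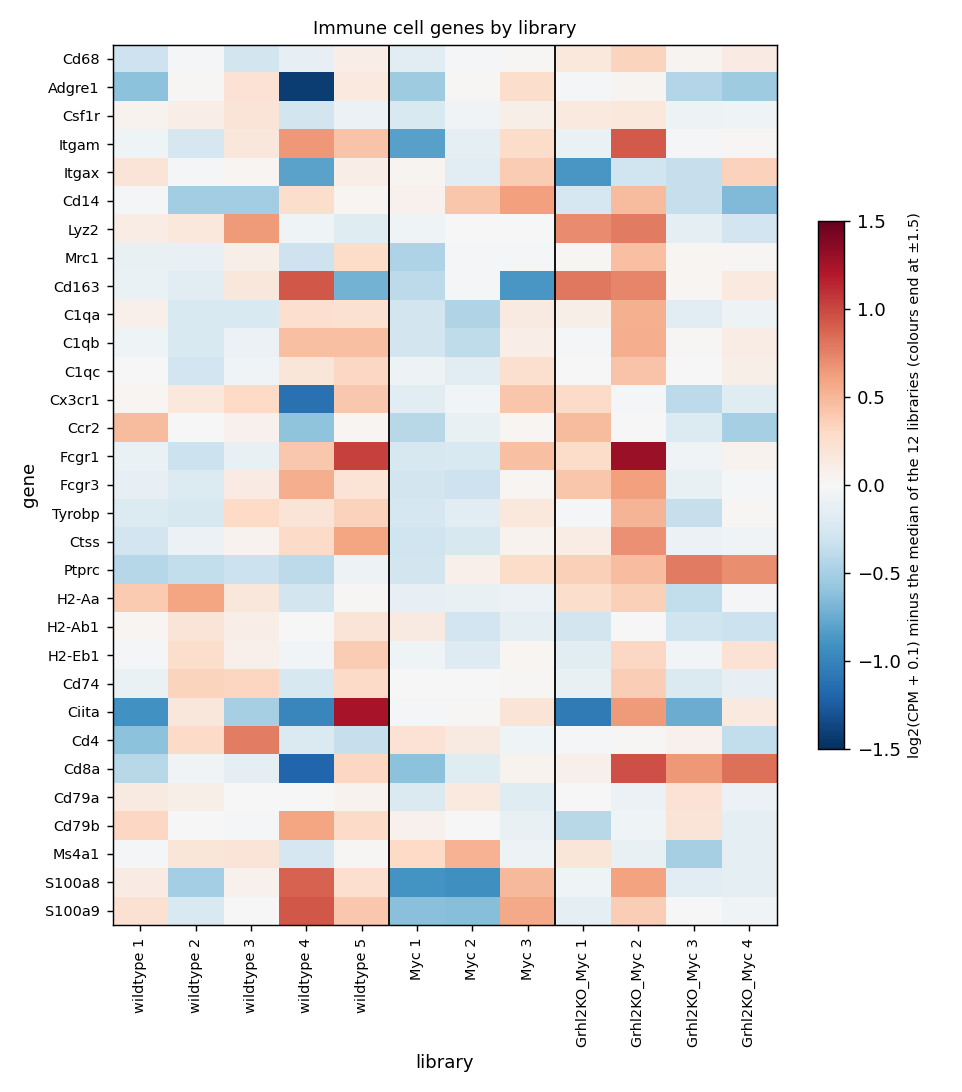
Level of each tested gene (rows) in each library (columns) as log2(CPM + 0.1) minus its median over the 12 libraries, with red above and blue below. The column of Grhl2KO_Myc 2 is red in most macrophage rows, and the Ptprc row is red across all 4 Grhl2KO_Myc columns.

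Signalling genes moved in the same library. The examples were chosen after their values were seen. Cxcl10, an interferon-induced chemokine that attracts T cells, reached 29.3 CPM in Grhl2KO_Myc 2, while the other 11 libraries spanned 0.736 to 2.59 CPM. The adhesion molecule Icam1 was at 93.0 CPM against 11.2 to 20.1 CPM, the macrophage growth factor Csf1 at 42.0 CPM against 11.02 to 18.1 CPM, and the monocyte chemokine Ccl12 at 9.89 CPM against 0.341 to 2.67 CPM. This library was the highest of 12 at 54 of the 154 tested genes of the other immune lists. Wildtype 5 shared part of the pattern, with Tap1, the peptide transporter of class I, at 34.2 CPM. Tap1 was at 42.3 CPM in Grhl2KO_Myc 2 and at 9.09 to 14.4 CPM elsewhere. Wildtype 5 also had the second highest Fcgr1, at 4.20 CPM after 5.08 CPM. Ptprc was higher in Grhl2KO_Myc 3 and 4 than in Grhl2KO_Myc 2.

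**Figure D5:**
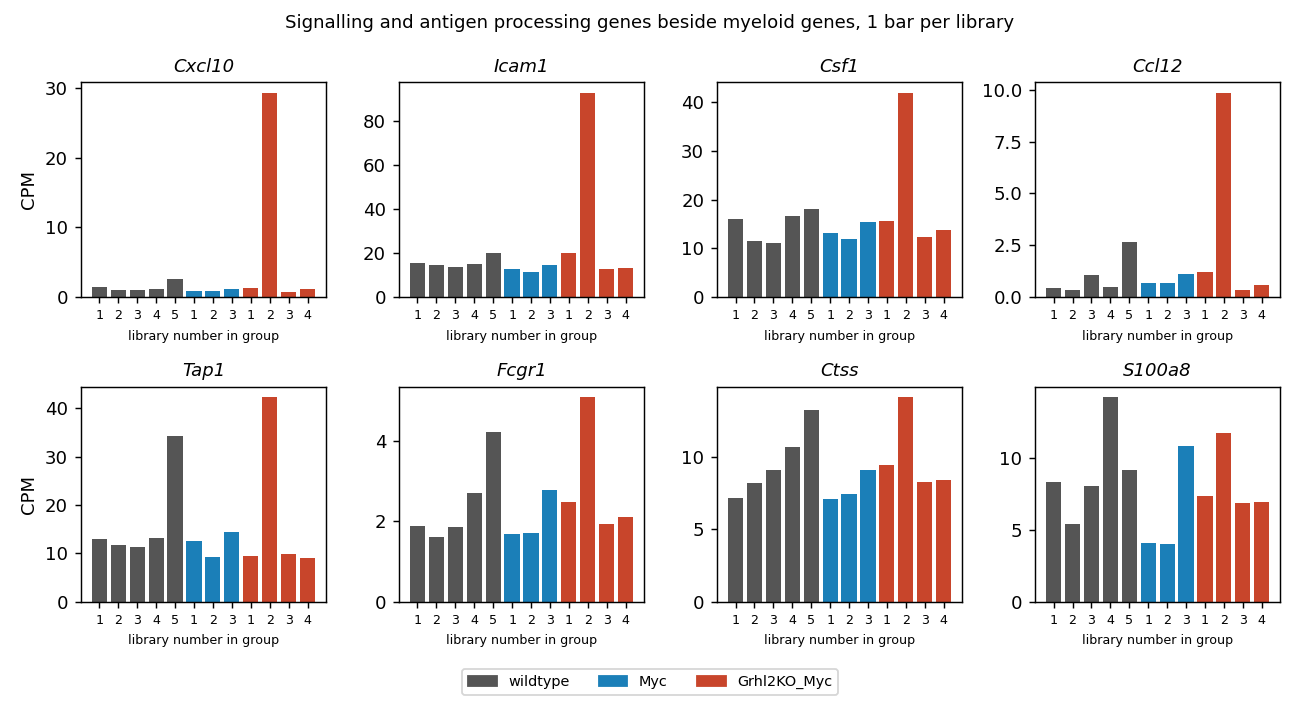
CPM of 4 signalling genes, the class I gene Tap1 and 3 myeloid genes, 1 bar per library, coloured by group. Grhl2KO_Myc 2 has the tallest bar in every panel but S100a8, where wildtype 4 (14.2 CPM) is higher.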

How the data were processed

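Polyadenylated RNA of entire right kidneys was sequenced as 12 TruSeq RNA v2 libraries, which do not mark strand, per the labels' protocols. Reads were aligned with HISAT2 to mm10, per the submitters' processing notes, while the sources used here do not name the counting program, its annotation or any version. The authors deposited whole-number counts per gene and an exon width, not normalized, per the file headers. Columns were matched to samples by the identifiers in the titles, and 0 columns belonged to other samples. Genotype labels gave the groups.

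Counts were tested in R 4.3.3 with edgeR 4.0.16 (TMM scaling, default expression filter, quasi-likelihood F test), with 12 libraries in 1 fit and Benjamini-Hochberg adjustment over 23742 genes. A gene was called at an adjusted p under 0.05. The SE was derived from the fold change and its F statistic. The 34 genes, the other lists and the alternatives were chosen with earlier results of these data known. All 34 were named whatever their p, and of each other list up to 4 genes with the smallest adjusted p, and genes outside this rule are said to be chosen after their values were seen. The Ptprc promoter was also added in that way. On simulated counts for Grhl2KO_Myc against wildtype, with 23486 genes, 62.7% of genes changed 1.5-fold and 79.1% of those changed 2-fold were recovered, with 5 false calls. Changes were placed only in genes with a mean above 1 CPM, so these rates do not cover lower genes such as Itgax, Cd4, Cd79a and Ms4a1. Even the most alike libraries of a group were apart by more than counting noise (chi-square over degrees of freedom 13.4), so each was kept as a sample of its own, although repeat preparations of 1 kidney would not show in this check. Alternatives were RLE and upper-quartile scaling, 2 other filters, DESeq2 1.42.0, limma-voom (limma 3.58.1), fits restricted to the compared groups, a replicate block, covariates for Y-linked expression and for the proximal tubule score, and libraries left out. Coordinates are from GENCODE M21 (mm10), in which 17 of the 34 exon widths equal those of the table, and promoters from RefSeq GRCm38.p6.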

Additional observations from a re-analysis of the deposited data

Results flagged for a closer look

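Within groups of 4 or 5 libraries, 8 values lay far from the rest of their group by Dixon's test, among 68 groups of gene and genotype, where chance flags about 1 in 20. Grhl2KO_Myc 2 held 6 of them, each at the high end. There Itgam was at 6.449 CPM (other Grhl2KO_Myc libraries 3.14 to 3.41), Mrc1 at 23.15 CPM (17.0 to 17.2), Fcgr1 at 5.077 CPM (1.93 to 2.46), H2-Ab1 at 13.58 CPM (10.8 to 11.2), Cd74 at 8.048 CPM (5.34 to 5.74) and S100a8 at 11.75 CPM (6.89 to 7.34). Ptprc in wildtype 5, at 17.29 CPM, exceeded the other wildtype libraries (13.6 to 14.6), and Itgax in wildtype 4, at 0.1666 CPM, lay below them (0.358 to 0.432). Groups of 3 were not examined in this way.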

How the results depend on the processing

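In Grhl2KO_Myc against wildtype the number of called genes among the 31 was 1 (Ptprc). It was 2 with a replicate block (Cd8a added, adjusted p = 0.043), 4 with the proximal tubule score in the model, 2 without wildtype 4, Grhl2KO_Myc 3 and Grhl2KO_Myc 4 (Cd163 added), and 3 with DESeq2 (H2-Ab1 and Cd8a added). With 1 library left out it ranged from 1 to 3, reaching 3 without wildtype 4 (Ptprc, H2-Ab1 and Cd8a), 2 without wildtype 5 (Cd8a added) and 2 without Grhl2KO_Myc 2 (H2-Ab1 added). In Grhl2KO_Myc against Myc it was 0, and 1 with DESeq2 (Ptprc), and 0 in all fits with 1 library left out. In Myc against wildtype it was 0 in all 19 alternatives. The causes were not tested. Of the values of single genes under an alternative, 1743 kept their side of the threshold, 12 passed it only there, 0 lost it and 0 changed sign while called. Over all genes, calls ranged from 750 to 3778 (1584 in the main test) in Grhl2KO_Myc against wildtype, from 70 to 784 (200) in Grhl2KO_Myc against Myc and from 0 to 43 (1) in Myc against wildtype.

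The replicate numbers of the labels showed no sign of pairing samples. Deviations of same-numbered libraries of different groups correlated at -0.22 to 0.33, above 0.1 in 3 of 10 pairs. Those of differently numbered libraries correlated at -0.38 to 0.39, above 0.1 in 12 of 37 pairs. Whether samples shared a litter or a preparation was not tested. The block changed no other call among the 31 genes, and over all genes it left 993, 88 and 0 calls in place of 1584, 200 and 1. RLE and upper-quartile scaling gave medians over all genes of -0.01 to 0.01 on the log2 scale. Calls over all genes were most numerous without wildtype 4 and fewest without Grhl2KO_Myc 4 in Grhl2KO_Myc against wildtype. Low counts kept Cd3e, Cd3g and Nkg7 out of the main test. Simulated 1.5-fold changes were recovered at 52.2% and 2-fold changes at 80.6% in Myc against wildtype (23455 genes), and at 46.3% and 83.6% in Grhl2KO_Myc against Myc (23472 genes). These changes too were placed only in genes with a mean above 1 CPM.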

Other observations

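The direction of the class I pathway and of the chemokine list changed with the libraries in the fit. Of 16 class I genes 13 lay above 0 in Grhl2KO_Myc against Myc, 4 did without Grhl2KO_Myc 2, and all 16 did without the 3 libraries low in proximal tubule genes (wildtype 4, Grhl2KO_Myc 3 and Grhl2KO_Myc 4). Of the 23 tested chemokine and cytokine genes 18 lay above 0 in Grhl2KO_Myc against wildtype with a median log2 fold change of 0.43, and without Grhl2KO_Myc 2 7 of 22 did, with a median of -0.13. Without those 3 libraries 22 of 25 lay above 0 with a median of 0.86, and 8 were called, against 1 (Ccl20) in the main test. Over all genes that fit called 2272, against 1584 in the main test, and 50.3% lay above 0. That fit keeps Grhl2KO_Myc 1 and 2 as the Grhl2KO_Myc group. Nlrc5, the activator of class I genes, was at 6.09 CPM in Grhl2KO_Myc 2 and 5.53 CPM in wildtype 5, against 0.331 to 1.37 CPM in the other 10 libraries. H2-K1, a class I heavy chain, was at 50.3 ± 2.97 CPM in wildtype (n = 5) and 61.0 ± 8.12 CPM in Grhl2KO_Myc (n = 4), or 0.28 on the log2 scale (SE 0.083, edgeR adjusted p = 0.068). Il2rb, the interleukin 2 receptor chain of T and NK cells, was at 1.61, 1.89, 1.48 and 1.62 CPM in Grhl2KO_Myc and at 0.676, 0.488 and 0.756 CPM in Myc, without overlap (log2 fold change 1.36, SE 0.36, edgeR adjusted p = 0.12), and at 0.593 to 2.11 CPM in wildtype. Examples in this paragraph were chosen after their values were seen.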
